A study of Mus musculus with 4 samples.

Results

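The genes described here encode the plasma proteins of blood clotting and of complement, most of which the liver makes and secretes. The list held 37 genes, 18 of clotting and fibrinolysis and 19 of complement, and every probe whose platform symbol was one of them was taken. That gave 50 probes for 34 genes (17 clotting and 17 complement) out of 25697 probes and 16593 genes. Cpb2, C3 and Cfd were not analysed here. The arrays, 2 per group, came from livers in which ROCK1, a kinase that drives actomyosin contraction, was knocked out in the liver (ROCK1 KO), and from control livers. Total liver RNA was read in 1 colour on Illumina bead arrays. All mice ate normal chow for 16 weeks and lived on 14 h of light and 10 h of dark. The strain, sex and age of the mice, the Cre driver, the deleted part of Rock1 and whether each array was a separate animal are not stated in the labels used here. The spread behind each p-value is therefore that between arrays, which may be technical.

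Clotting runs through zymogens that activate one another on exposed surfaces until thrombin cuts fibrinogen into fibrin, which plasmin later dissolves. Protein C with its cofactor protein S slows the cascade. Complement is started by C1q on antibodies, by mannose-binding lectins on sugars, or by spontaneous turnover of C3 that factor B amplifies, and it ends in a pore of C5b, C6, C7, C8 and C9. Factor I, helped by cofactors such as C4b-binding protein, cuts C3b and C4b and so holds the cascade in check. Hepatocytes make nearly all of these proteins, and macrophages are the main source of C1q.

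Between the genotypes, 5 of the 34 measured genes passed the test. The 4 that fell in ROCK1 KO liver were C4bp (C4b-binding protein), Cfb (complement factor B) and Cfi (complement factor I) among the complement genes, and Hrg (histidine-rich glycoprotein, a plasma protein that binds heparin and plasminogen) among the clotting genes. The 1 that rose was Fga, the fibrinogen alpha chain, on a probe near the top of the scanner range. Values are log2(quantile-normalised intensity + 16), each gene is read by its brightest probe, and a difference is ROCK1 KO minus control. A gene was called where limma's two-sided p, adjusted by Benjamini-Hochberg over all probes, was under 0.05. Calls were made for 8.84% of all genes (4.2% higher and 4.63% lower) and for 18.3% of the 6882 genes above background on at least 2 arrays (8.28% higher and 10% lower). Of the 34 genes 33 were above background on at least 2 arrays, so the shares above background are the nearer yardstick, and the 5 calls (14.7%) lie close to them.

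The promoters of the called genes that the RefSeq table holds (GRCm38.p6) are shown because they are the start sites of the genes that moved. They run from 250 bases before to 50 bases after the gene's start, with capitals marking each match to 4 short motifs of liver transcription factors.
C4bp (chr1:130661569-130661868, - strand): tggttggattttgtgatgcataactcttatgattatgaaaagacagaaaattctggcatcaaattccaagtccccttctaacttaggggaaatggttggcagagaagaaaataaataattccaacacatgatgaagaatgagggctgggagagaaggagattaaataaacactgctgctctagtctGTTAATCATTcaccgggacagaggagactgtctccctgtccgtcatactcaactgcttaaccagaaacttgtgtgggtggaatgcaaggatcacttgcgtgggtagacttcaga
Hrg (chr16:22950822-22951121, + strand): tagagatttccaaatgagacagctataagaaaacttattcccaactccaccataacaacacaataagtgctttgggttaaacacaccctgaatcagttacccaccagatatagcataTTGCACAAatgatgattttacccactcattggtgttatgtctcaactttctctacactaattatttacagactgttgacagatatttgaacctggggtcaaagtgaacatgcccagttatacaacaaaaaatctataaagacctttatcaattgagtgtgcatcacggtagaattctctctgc
Fga (chr3:83025903-83026202, + strand): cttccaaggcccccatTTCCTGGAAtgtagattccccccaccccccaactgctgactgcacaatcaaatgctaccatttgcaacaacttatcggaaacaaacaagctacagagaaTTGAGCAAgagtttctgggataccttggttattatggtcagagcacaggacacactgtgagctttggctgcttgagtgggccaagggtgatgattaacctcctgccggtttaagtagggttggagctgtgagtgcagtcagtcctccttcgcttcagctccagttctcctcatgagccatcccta

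The motifs, searched on both strands, were TTGCNNAA for C/EBP, TTCNNNGAA for STAT3, CAAAGTNCA for HNF4 and, for HNF1, GTTAATCATT with any base in place of its C. No matches overlapped in these promoters. The C4bp promoter held an HNF1 match (GTTAATCATT, 64 bases before the start), the Hrg promoter a C/EBP match (TTGCACAA, 133 bases before it), and the Fga promoter a C/EBP match (TTGAGCAA, 135 bases before it) and a STAT3 match (TTCCTGGAA, 234 bases before it). Over the 28 of 37 member promoters that the table holds, those of the unmeasured Cpb2, C3 and Cfd among them, the C/EBP letters were found in 9 (32.1%, against 10.8% of 32544 promoters in all), the STAT3 letters in 6 (21.4% against 8.33%), the HNF1 letters in 2 (7.14% against 0.403%) and the HNF4 letters in 1 (3.57% against 1.43%). By part, the C/EBP letters were in 7 of 15 clotting and 2 of 13 complement promoters, and the STAT3 letters in 4 of 15 and 2 of 13. A match is a description of letters, not a bound site.

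Rock1 itself, read by 1 probe, had 8.06 and 7.91 on the KO arrays, against 8.51 and 8.51 on the control arrays (difference -0.53, SE 0.12, limma adjusted p = 0.0181). The groups did not overlap. Leaving out either control array or KO replicate 2 ended the call (highest adjusted p = 0.0994). Whether the probe lies in the deleted part was not tested. The KO arrays were brighter before normalisation, with median intensities of 203.4 and 206.3, against 144.9 and 136.9 in control. The difference in raw brightness runs with the genotype, so the 2 cannot be told apart on the raw scale.

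**Figure D1:**
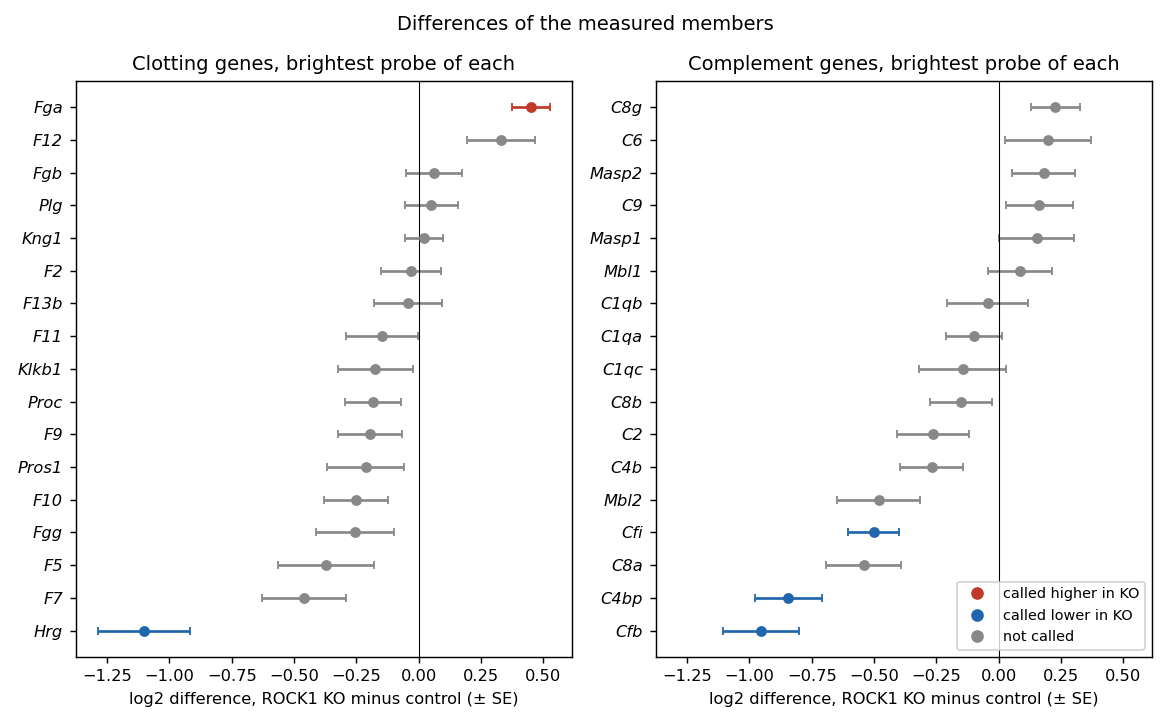
Log2 difference (ROCK1 KO minus control, horizontal axis, bars show SE) of the 17 clotting genes and the 17 complement genes, each by its brightest probe, 2 arrays per group. Called falls are Hrg, Cfb, C4bp and Cfi, the called rise is Fga, and most other genes lie a little below 0.

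As a group the clotting genes had 1 call in each direction among 17 genes, and the complement genes 0 higher and 3 lower among 17. At an unadjusted p under 0.05, limma gave 2 higher and 2 lower clotting genes, and 1 higher and 5 lower complement genes, each of 17. Of the genes above background, 19.9% were higher and 18.8% lower at that p, the share to hold these counts against. It also serves the marker lists below that are mostly above background. Over all 16593 genes, 2065 were higher and 1802 lower at that p. That is the nearer yardstick for the cholangiocyte, lymphocyte, neutrophil, adipocyte and platelet and erythroid lists, which are mostly below background. The median difference was -0.17 over the clotting genes and -0.15 over the complement genes, against 0.0037 over all genes and 0.026 over genes above background. The difference was below 0 for 12 of 17 clotting genes and for 11 of 17 complement genes. The medians of both parts were thus alike and slightly below that of all genes. Without the C1q genes, the median of the 14 complement genes left was -0.21. Of these 14, 3 were called (21.4%, against 18.3% of genes above background). The median absolute difference was 0.19 for clotting and 0.20 for complement, against 0.24 for genes above background. The KO and control arrays did not overlap for 19 of the 34 genes, 5 higher and 14 lower, where 65.4% of genes above background showed no overlap. No difference between the parts was tested.

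Among the complement regulators, C4bp, whose product binds C4b and serves as a cofactor of factor I, had 12.19 and 12.23 on the KO arrays, against 12.9996 and 13.1049 on the control arrays. Both KO arrays lay well below both control arrays. The difference was -0.84 (SE 0.14, 1.80-fold lower, limma adjusted p = 0.0034). The intensities before normalisation were 5463 and 5172 in KO and 8483 and 6431 in control, so the order was the same on the raw scale. C4bp kept its call with each array left out in turn (highest adjusted p = 0.0452). In bulk liver, fewer cells of a type and less RNA per cell cannot be told apart, here or below.

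Cfi, the serine protease that cuts C3b and C4b, had 14.04 and 13.96 on the KO arrays and 14.51 and 14.49 on the control arrays. The arrays of each group lay close together and the groups stood apart. The limma difference was -0.50 (SE 0.10, 1.42-fold lower, adjusted p = 0.0129). On the raw scale the groups overlapped, at 18907 and 16964 in KO and 23934 and 17914 in control. The call was lost without control replicate 1 (adjusted p = 0.0717) or control replicate 2 (0.0638).

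In the alternative pathway, Cfb, whose product forms the C3 convertase with C3b, had 11.12 and 11.01 on the KO arrays, against 12.10 and 11.95 on the control arrays. The gap between groups was several times that within either. The difference was -0.95 (SE 0.15, 1.94-fold lower, limma adjusted p = 0.00339). The call was lost without control replicate 1 (-0.88, adjusted p = 0.0519). In the RefSeq table no coding gene lies between Cfb and C2 on chromosome 17, and C4b lies 5 coding genes away. C2, the serine protease of the classical convertase, read -0.26 (12.40 and 12.21 in KO, 12.51 and 12.64 in control, adjusted p = 0.322). C4b read -0.27 (13.19 and 13.40 in KO, 13.53 and 13.61 in control, adjusted p = 0.246). Neither neighbour was called, although neither overlapped between the groups. The C4b value is uncertain, since C4a is a near-identical copy whose transcripts may bind the same probe.

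**Figure D2:**
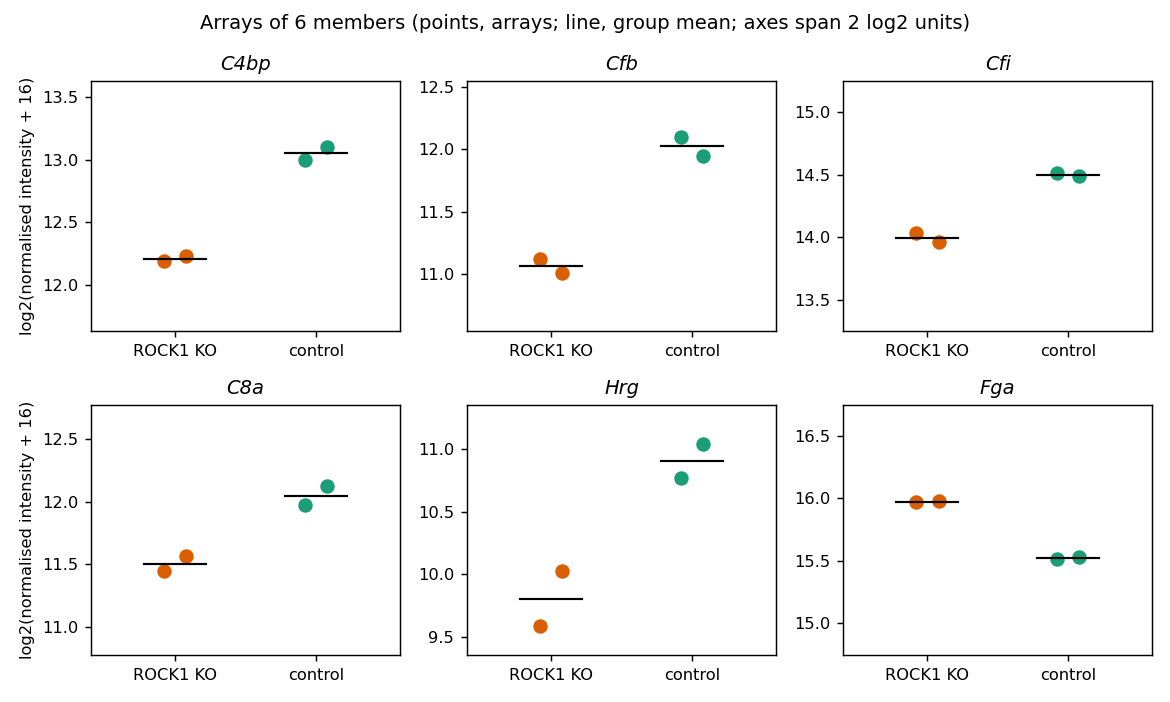
Log2(normalised intensity + 16) of C4bp, Cfb, Cfi, C8a, Hrg and Fga on each array (points), with the ROCK1 KO arrays on the left and the control arrays on the right of each panel, and the group mean as a line. In all 6 panels the 2 KO arrays lie on the same side of both control arrays, below them except for Fga.

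In the terminal pathway, C8a, the alpha chain of the pore component C8, had 11.44 and 11.57 on the KO arrays, against 11.97 and 12.12 on the control arrays. The groups did not overlap. The difference was -0.54 (SE 0.15, limma adjusted p = 0.05003, just above the threshold). Under 9 of 16 alternative settings C8a was called, but in none of the 4 fits that left out an array (highest adjusted p = 0.245). C8b, its neighbour on chromosome 4 with no coding gene between, read -0.15 (adjusted p = 0.529). C8g, the gamma chain, read 0.23, with 14.96 and 14.91 in KO and 14.80 and 14.62 in control (adjusted p = 0.208). The 3 chains of C8 thus gave differences of either sign, none of them called. C6 read 0.20 (12.83 and 12.83 in KO, 12.90 and 12.37 in control, adjusted p = 0.559), with its lowest and highest values both on control arrays.

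C9, the polymer-forming last component, gave opposite readings by probe. On its brightest probe (ILMN_2937375) it read 0.16, with 15.20 and 14.80 in KO and 14.95 and 14.72 in control, which overlap (adjusted p = 0.529). On the second (ILMN_2937379) it had 12.28 and 12.18 in KO and 13.26 and 13.21 in control, a called fall of -1.01 (SE 0.13, limma adjusted p = 0.00129) that held with each array left out in turn (highest adjusted p = 0.0228). The remaining probe (ILMN_2594846) had 7.78 and 8.32 in KO and 8.88 and 9.08 in control, a called fall of -0.93 (adjusted p = 0.00723), lost without control replicate 2 (adjusted p = 0.0806). With the mean of its probes C9 was called at -0.59 (adjusted p = 0.0297). Which transcripts each probe binds was not tested.

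The starters of the classical and lectin pathways gave no call. The C1q chain genes C1qa, C1qb and C1qc, which lie side by side on chromosome 4, read -0.099, -0.045 and -0.15 (adjusted p of 0.672, 0.910 and 0.687). Macrophages are their main source. Of 17 measured macrophage and Kupffer cell markers, 13 were above background on at least 2 arrays. Limma called 0 of the 17 higher and 4 lower (23.5%), where 18.3% of genes above background were called (10% lower). At an unadjusted p under 0.05, 0 were higher and 6 lower, and the median was -0.21. Their summed normalised intensity was 8761 and 8737 on the KO arrays, against 12301 and 10196 on the control arrays. Lyz1, the brightest of them (11.30 and 11.26 in KO, 12.01 and 11.48 in control), was not called and carries the largest part of that gap. The 4 called lower were the scavenger receptor Cd163 (-1.32), the macrophage marker Adgre1 (-0.84, with no call on another probe), the Kupffer cell lectin Clec4f (-0.63, with no call on another probe) and Ly86 (at least 1.19-fold lower). Cd163 kept its call with each array left out in turn and, at -0.64, with the mean of its probes, and the other 3 did not. Vsig4, a complement receptor of Kupffer cells, read 0.0020 (10.34 and 10.45 in KO, 10.40 and 10.39 in control). The probes of Marco, Msr1, Cd5l and Tyrobp were not above background on any array. The part of these markers in the C1q values was not tested.

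Mbl2, a mannose-binding lectin, had 12.33 and 12.05 on the KO arrays and 12.85 and 12.50 on the control arrays (difference -0.48, limma adjusted p = 0.107). Mbl2 was called with 75th percentile scaling (adjusted p = 0.0345). Mbl1, the other lectin of this kind in mice, read 0.086, with 13.40 and 13.22 in KO and 13.25 and 13.19 in control (adjusted p = 0.757). The Mbl2 groups did not overlap, whereas those of Mbl1 did. Masp1 and Masp2, the proteases bound to these lectins, read 0.15 and 0.18 (adjusted p of 0.617 and 0.458). Masp2 had 13.04 and 13.07 in KO and 12.88 and 12.87 in control, without overlap. The 2 other probes of Masp2 read 0.38 and -0.20, neither of them called.

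Among the clotting genes, the fibrinogen chains lie next to each other on chromosome 3 and differed in reading. Fga had 15.97 and 15.98 on the KO arrays, against 15.51 and 15.53 on the control arrays. Its intensities before normalisation were 64911 and 60667 in KO and 50696 and 41704 in control, so both KO arrays were above 60000, near saturation. Within quantile normalisation the difference was 0.45 (SE 0.08, 1.37-fold higher, limma adjusted p = 0.00442), a size that saturation leaves uncertain. The other Fga probe read 0.38 (adjusted p = 0.0152), a call that 8 of 15 alternatives ended with the direction kept. With the authors' deposited log2 values the brightest probe read 0.32 (limma adjusted p = 0.0284). Neither probe was called with 75th percentile scaling, where the brightest read 0.049 (adjusted p = 0.972) and the other -0.012 (adjusted p = 0.995). Fgg, the gamma chain, read -0.26, with 13.81 and 14.18 in KO and 14.05 and 14.45 in control (adjusted p = 0.375), and its arrays overlapped. The Fgb probe was not above background on any array, so it gives no level for the beta chain.

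Hrg, the clotting gene with the greatest fall among the 17, had 9.59 and 10.02 on the KO arrays, against 10.77 and 11.04 on the control arrays. The KO arrays differed from each other by more than the control arrays did, yet both lay below. The difference was -1.10 (SE 0.18, 2.15-fold lower, limma adjusted p = 0.00444). The other Hrg probe, at 9.21 and 9.40 in KO and 9.37 and 9.75 in control, read -0.26 with overlap (adjusted p = 0.411), and the mean of both was not called (-0.68, adjusted p = 0.0507). The call was also lost without control replicate 2 (adjusted p = 0.0634).

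The contact system comprises F12, F11, Klkb1 (prekallikrein) and Kng1 (kininogen, the source of bradykinin). F12 had 13.35 and 13.12 on the KO arrays and 12.85 and 12.96 on the control arrays (difference 0.33, limma adjusted p = 0.178). All 3 of its probes had both KO arrays above both control arrays, and 1 (ILMN_2605656, 10.93 and 10.56 in KO, 9.93 and 10.14 in control) was called higher by 0.71 (adjusted p = 0.0307). That call needed both control arrays and KO replicate 1 (highest adjusted p with 1 of them left out = 0.196). F11 and Klkb1, neighbours on chromosome 8, read -0.15 and -0.17 (adjusted p of 0.616 and 0.559).

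Kng1, which is parted from Hrg by 1 coding gene on chromosome 16, read 0.021 on its brightest probe (15.86 and 15.92 in KO, 15.90 and 15.84 in control, adjusted p = 0.908), close to the top of the scanner range. With 75th percentile scaling it read -0.45. Its second probe had 13.86 and 13.86 in KO and 14.34 and 14.21 in control, a called fall of -0.41 (limma adjusted p = 0.0440) that was lost in each of the 4 fits that left out an array. Its dimmest (ILMN_1225218) was not above background on either KO array (7.79 and 7.80), against 8.61 and 9.14 in control. The adjusted p of that probe by limma was 0.00207, its fall was at least 2.03-fold, and the call held with each array left out in turn. Kng2 is a close copy of Kng1, so these values are uncertain, and the Kng2 probe read -0.37 (adjusted p = 0.153).

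**Figure D3:**
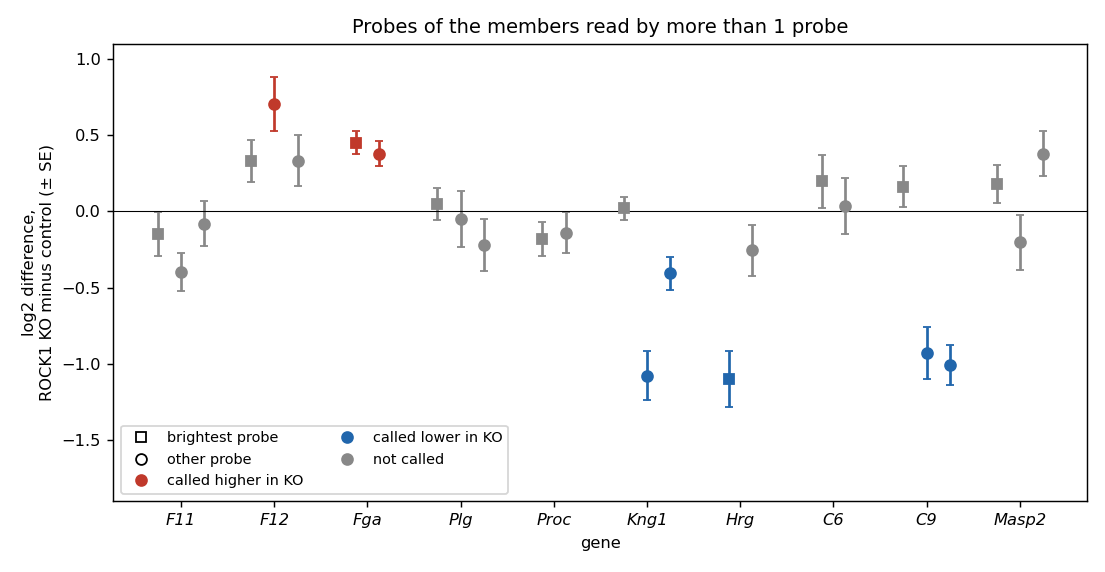
Log2 difference (ROCK1 KO minus control, vertical axis, bars show SE) of every probe of the 10 genes read by more than 1 probe, with the brightest probe of each as a square. The brightest and the other probes of Kng1, C9 and Hrg stand apart, those of F12 all lie above 0, and those of F11 and Proc all lie below 0.

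Of the vitamin K dependent zymogens, F7, which starts the tissue factor pathway, had 10.56 and 10.69 on the KO arrays and 10.92 and 11.25 on the control arrays (difference -0.46, limma adjusted p = 0.130). F10, its direct neighbour on chromosome 8, had 13.11 and 13.05 in KO and 13.25 and 13.42 in control (-0.25, adjusted p = 0.286). Neither overlapped between groups, and neither was called. F9 read -0.19 (adjusted p = 0.417) and F2, prothrombin, read -0.031 (13.39 and 13.55 in KO, 13.51 and 13.49 in control, adjusted p = 0.917). F5, the cofactor of factor X, had 10.67 and 11.14 in KO and 11.11 and 11.44 in control (-0.37, adjusted p = 0.293), with overlap.

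The anticoagulants Proc and Pros1 read -0.18 and -0.21 (adjusted p of 0.377 and 0.472). Proc had 13.81 and 13.81 in KO and 13.94 and 14.05 in control, and its other probe read -0.14. Pros1 had 10.81 and 10.65 in KO and 10.95 and 10.94 in control. Plg, the precursor of plasmin, read 0.050 on its brightest probe and -0.050 and -0.22 on the others (lowest adjusted p = 0.498). F13b, which carries the fibrin cross-linking enzyme in plasma, read -0.043 (adjusted p = 0.898).

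Over all probes of the members, 49 of 50 were above background on at least 2 arrays, and limma called 3 higher and 8 lower, where 18.3% of the 9557 probes above background were called. These 11 probes belong to 8 genes. The 3 higher are those of Fga and F12, and the 8 lower are those of C9, Kng1, Hrg, Cfb, Cfi and C4bp.

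Around the members, 30 of 33 other listed clotting and fibrinolysis genes were measured, 20 of them above background on at least 2 arrays. Of the 30, 1 rose, 3 fell and 26 were not called (13.3% called, median -0.10). Calls were made for 18.3% of genes above background and for 8.84% of all genes. The 26 include genes too dim to show a change. Apoh, whose product binds phospholipid surfaces and dampens contact activation, had 12.09 and 12.78 on the KO arrays, against 14.25 and 14.20 on the control arrays (-1.79, SE 0.19, limma adjusted p = 0.000383). Serpinc1, antithrombin, had 9.01 and 9.72 in KO and 10.42 and 10.81 in control (-1.25, adjusted p = 0.00652), while its other bright probe read -0.48 and was not called. Its call was lost without control replicate 2 (adjusted p = 0.0876). Fgl1, a fibrinogen-like hepatocyte protein, had 12.35 and 12.32 in KO and 13.50 and 13.51 in control (-1.17, adjusted p = 0.000462). Serpina5, the protein C inhibitor, was not above background on either control array and was at least 1.59-fold higher in KO on its brightest probe (adjusted p = 0.000519). The mean of its probes read 0.46 (adjusted p = 0.0272). Apoh, Fgl1 and Serpina5 kept their calls with each array left out in turn.

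Of 38 other listed complement genes 28 were measured, 17 of them above background on at least 2 arrays. By limma, 0 were called higher, 3 lower and 25 not (10.7% called, against 18.3% of genes above background and 8.84% of all genes). At an unadjusted p under 0.05, 2 were higher and 6 lower, and the median was -0.043. Cfhr2, a factor H-related gene, had 9.38 and 9.01 on the KO arrays, against 10.66 and 10.69 on the control arrays (-1.48, SE 0.17, limma adjusted p = 0.000508), a call that held with each array left out in turn. With the mean of its probes it read -0.70 (adjusted p = 0.0160). Factor H-related genes are close copies, so this value is uncertain. Colec10, a liver collectin of the lectin pathway, had 7.93 and 7.91 in KO and 8.75 and 8.41 in control (-0.66, adjusted p = 0.0119). Its call was lost without control replicate 1. Cd55, which speeds the decay of the C3 convertases, was not above background on either KO array and was called lower (adjusted p = 0.0230), a call lost under both 75th percentile scalings and without either control array or KO replicate 2. Serping1, the C1 inhibitor that also blocks the contact system, read -0.015 (14.34 and 14.67 in KO, 14.48 and 14.56 in control), and Hc, which encodes C5, read 0.21 (12.42 and 12.21 in KO, 11.96 and 12.25 in control, adjusted p = 0.491).

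Of 14 measured liver transcription factor and interleukin-6 pathway genes, 13 were above background on at least 2 arrays. Of the 14, 1 rose, 4 fell and 9 were not called (35.7% called, median -0.21). Calls were made for 18.3% of genes above background (8.28% higher and 10% lower), and this short list was chosen with earlier results known. Cebpa, the C/EBP alpha factor of hepatocytes, had 9.81 and 10.09 on the KO arrays and 8.87 and 8.99 on the control arrays (1.02, SE 0.15, limma adjusted p = 0.00246), a call that held with each array left out in turn. Stat3, which carries interleukin-6 signals to acute phase genes, had 10.10 and 9.92 in KO and 10.75 and 11.02 in control (-0.88, adjusted p = 0.00803). Its other bright probes read -0.61 (called) and -0.065 (not called), and its call was lost without control replicate 2. Foxa3 (-0.65, adjusted p = 0.0151) and Foxa1 (-0.65, adjusted p = 0.0264) also fell, but not in every fit that left out an array. Onecut1 was called lower with no fold to give, since its probe was above background on 1 control array and on no KO array. That call (adjusted p = 0.0457) was lost under 8 of 15 alternatives. Hnf4a, a regulator of many clotting genes in the liver, read -0.62 (11.76 and 12.28 in KO, 12.61 and 12.67 in control, adjusted p = 0.0540) and was not called. It was called under 6 of 16 alternatives, and read -0.88 to -0.36 with each array left out in turn (highest adjusted p = 0.245).

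**Figure D4:**
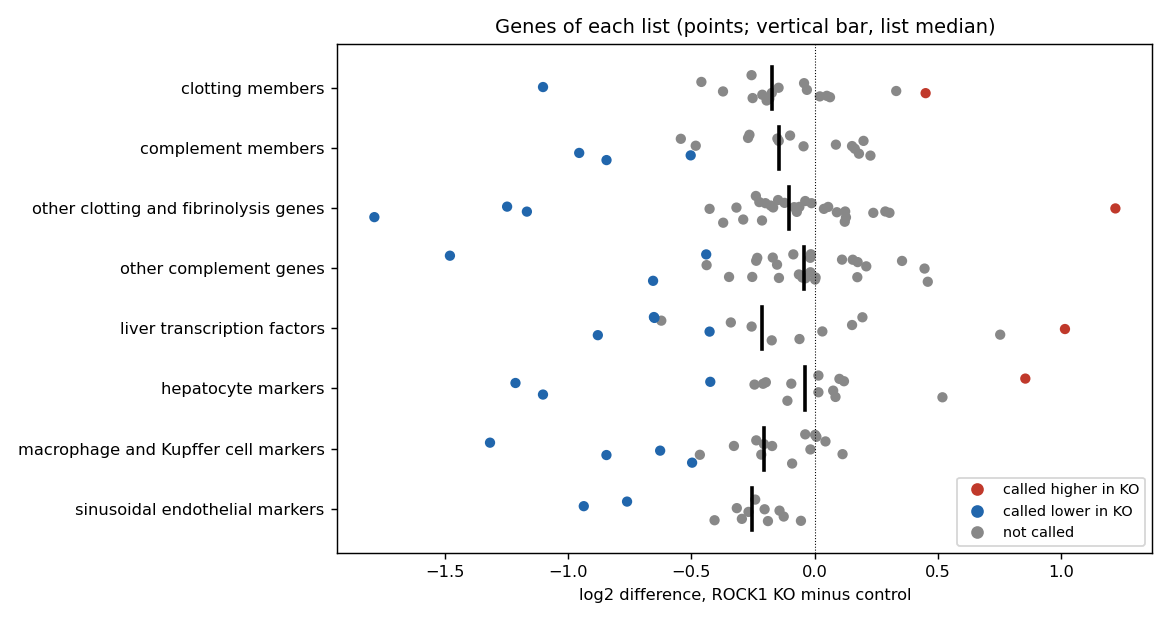
Log2 difference (ROCK1 KO minus control, horizontal axis) of each measured gene of 8 lists (points), with the list median as a bar and colours for called genes. Apoh, Cfhr2 and Cd163 reach further below 0 than any member, and the medians of the clotting and complement genes, -0.17 and -0.15, lie between those of the hepatocyte and the sinusoidal endothelial markers.

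Among hepatocyte markers, 16 were measured and limma called 1 higher and 3 lower (25%, median -0.040). Of genes above background 18.3% were called, 8.28% higher and 10% lower. The summed normalised intensity of the 16 markers was 503660 and 510610 on the KO arrays and 511580 and 527680 on the control arrays. The probes of Apoa1, Apoa2, Apoc3 and Cyp2e1 were near saturation in control, and that of Apoc3 in KO too. Such bright probes make up much of the sum, so it cannot show whether hepatocyte RNA changed. Of the 16, 14 were above background on at least 2 arrays, while the Alb probe was above it on 1 array and the Tat probe on none. Rbp4 (-1.21), Tdo2 (-1.10) and Fah (-0.42) fell, and Asgr2 rose by 0.85. Rbp4 and Tdo2 kept their calls under all 16 alternatives, Fah lost its call under 6, and Asgr2 lost its call without control replicate 2 (adjusted p = 0.0699). The 12 sinusoidal endothelial markers all read below 0 (median -0.25). At an unadjusted p under 0.05, limma gave 0 higher and 4 lower. It called 0 higher and 2 lower (16.7%, against 18.3% of genes above background). The 2 were Clec4g (-0.94) and Fcgr2b (-0.76, with -0.35 and no call on another probe). The Clec4g call was lost without control replicate 1 (adjusted p = 0.0503), and the Fcgr2b call without either control array and with the mean of its probes (-0.37). The summed intensity of the 12 endothelial markers was 9407 and 9036 in KO, against 15527 and 14002 in control. Clec4g, the brightest of them (12.38 and 12.12 in KO, 13.29 and 13.08 in control), carries most of that gap. Of the 12, 10 were above background on at least 2 arrays, and Lyve1 and Kdr were above it on none. Calls were 1 of 10 stellate markers (Col3a1, lower, not above background on either KO array), 1 of 4 cholangiocyte markers (Sox9, higher), 1 of 9 lymphocyte markers (Ms4a1, higher, above background on 1 array), 1 of 6 neutrophil markers (S100a9, lower, not above background on any array), and 0 of 6 adipocyte and 0 of 6 platelet and erythroid markers by limma. Of all genes 8.84% were called, and of genes above background 18.3%. None of the 4 called markers of these lists kept its call in every fit that left out an array. At an unadjusted p under 0.05 these last lists had 0 adipocyte genes (lowest p for Adipoq and Retn) and 1 platelet and erythroid gene (Gp9, higher, with Ppbp next and both not above background). The part of any of these cells in the values of the clotting and complement genes was not tested.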

How the data were processed

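Single-colour Illumina bead arrays of 2 ROCK1 KO and 2 control livers were analysed. The deposited intensities are bead summaries per probe on a linear scale, without detection p-values per the file headers. The authors' deposited log2 values rank the probes of each array the same way (rank correlation 1), have nearly the same distribution on every array, and served as an alternative. No source used here says how they were made. For this report the intensities were quantile-normalised, 16 was added and log2 taken, with background left in, which shrinks differences of dim probes. Scanner saturation shrinks those of bright ones. Probes, 25697 in all, were tested two-sided with lmFit and trended eBayes (limma 3.58.1, R 4.3.3). Tested on simulated data with 25697 probes for this comparison, 19.6% of changes of 1.5-fold were recovered, 87.2% of those of 2-fold and 100% of those of 4-fold, while false calls made up 4.79%. The simulated noise was drawn from limma's own fitted variance model. Fewer probes were changed, all above background, than were called in the data. A false share near the threshold is thus built in, and these shares do not measure error or power on these arrays. The number of arrays limits the precision, and an exact permutation test of 2 against 2 cannot go below 0.333, so none was used.

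Symbols came from the platform annotation (23978 probes with 1, 0 with several, 1719 with none), with 23962 probes matched to RefSeq GRCm38.p6 and 0 symbols changed. No source used here names the platform's build, so RefSeq served for names, gene order and promoters. The brightest probe stands for a gene. A probe was above background over 7.855 on the log2 scale (mode plus 3 SD), and near saturation where both arrays of a group reached 60000. Where a group was dim on both arrays, its values were set to no less than the lowest value above that limit, and the change is given as "at least". Named genes were all members, with values per array for called members and for the 6 uncalled genes of smallest p in each part, and the called genes of each other list. A few more were named after their values were seen, for their role. The members and lists were chosen with earlier results of these data known. Alternatives covered offset, background correction, scaling, the authors' values, the threshold, the mean of a gene's probes, a dim-probe filter, the eBayes variance model, leaving out each array, and a block for the replicate number. Same-numbered arrays deviated from their group means with a correlation of -0.0571 across probes. Figures were drawn with matplotlib 3.10.9.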

Additional observations from a re-analysis of the deposited data

How the results depend on the processing

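Over the 16 alternatives, C4bp kept its call in each, and Hrg, Cfb, Cfi and Fga lost theirs only where the report says so, or, for Cfi, at an adjusted p under 0.01, or, for Fga, also with normexp and 75th percentile scaling (0.084, adjusted p = 0.881). That last scaling put the median of all genes at 0.11, against 0.0037 as reported. The count of all probes called was 795 at an adjusted p under 0.01, and 789 to 1727 without 1 array (789 without control replicate 1 and 808 without control replicate 2). Clotting genes called numbered 1 with 75th percentile scaling, with or without normexp, and 1 with the mean of all probes, and 1 to 2 without 1 array (1 without control replicate 2). Complement genes called numbered 5 with 75th percentile scaling and 5 with the replicate block, where C8a and Mbl2 joined, and 1 to 3 without 1 array (1 without control replicate 1). A lone array left in a group is assumed to vary like the others. The replicate numbers have no stated pairing, and with the block the probes called numbered 2920. The clotting median was -0.24 with 75th percentile scaling, -0.23 with normexp added, and -0.13 to -0.060 without 1 array. The complement median stayed within its spread between replicates, at -0.20 to -0.079 without 1 array.

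Signs turned for the following, the cause not tested except that averaging brings in the other probes. With 75th percentile scaling, then with normexp added, Plg read -0.13 and -0.093, and Kng1 -0.45 and -0.42, and the other Fga probe -0.012 with scaling alone. With the mean of all probes, Plg read -0.074, Kng1 -0.49 and C9 -0.59. Without 1 array, the ranges were -0.11 to 0.047 for F2, -0.14 to 0.057 for F13b, -0.086 to 0.21 for Fgb, -0.092 to 0.19 for Plg, -0.011 to 0.053 for Kng1, -0.19 to 0.099 for C1qb, -0.37 to 0.080 for C1qc, -0.067 to 0.46 for C6, -0.041 to 0.37 for C9 and -0.0070 to 0.18 for Mbl1. For other probes they were -0.16 to 0.00010 for F11, -0.31 to 0.21 for Plg, -0.22 to 0.29 for C6 and -0.50 to 0.091 for Masp2. The mean of all probes gives no count of probes. Signal over background limits Fgb, and saturation limits Fga and Kng1.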
